A study of Mus musculus with 9 samples.

Results

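The genes described here encode the glutathione and antioxidant enzymes of 3 mouse cell lines, END2, PYS2 and XEN. They are 46 named genes, chosen by symbol, and all array probes annotated with 1 of these symbols were used. Named probes existed for 43 of the 46 genes, through 82 of the 45281 probes on the array, while Gsr, Prdx5 and Prdx6 had no named probe and are not analysed here. The array named 19057 genes in all.

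END2 cells came from the embryonal carcinoma line P19, PYS2 cells from a tumor of strain 129 mice, and XEN cells (labelled xen10) from blastocysts of strain ICR. END2 and PYS2 cells had been described as able to induce heart tissue, and XEN cells were studied beside them. RNA of each line was profiled in triplicate, giving 9 single-colour bead arrays. The lines carried no treatment. PYS2 and XEN cells were kept in high glucose DMEM with serum, sodium pyruvate and the thiol β-mercaptoethanol, whereas END2 cells were kept in a DMEM/F12 mixture with serum for which no added thiol is described. Line and medium therefore cannot be told apart in the comparisons with END2. Each line is a single line, so differences between lines are also differences between strains and origins. Nothing states that replicates were separate cultures, and the p-values measure only the spread between these arrays, which may be technical.

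Glutathione is a tripeptide thiol that cells make from glutamate, cysteine and glycine. Glutathione transferases attach it to reactive molecules, glutathione peroxidases use it to reduce peroxides, and a parallel system of thioredoxin, peroxiredoxins and sulfiredoxin removes peroxides through protein thiols. Superoxide dismutases and catalase act on superoxide and hydrogen peroxide directly. The transcription factor Nrf2, encoded by Nfe2l2 and held in check by Keap1, drives many of these genes by binding antioxidant response elements with small Maf proteins. The early visceral and parietal endoderm of the mouse embryo, which such lines are used to model, are nutritive and barrier tissues at the interface with the mother.

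The core of the antioxidant response element was searched as TGACNNNGC on both strands in promoter windows from 250 bases before to 49 bases after the first transcribed base (RefSeq, GRCm38.p6). A window was found for 39 of the 46 genes, and 9 of them (23.1%) held the letters: Gclm, Gsta3, Gstm5, Mgst1, Nfe2l2, Prdx1, Sod1, Srxn1 and Txnrd1. Among all 27025 genes with a window the share was 14.0%. Gsta3 and Mgst1 are shown because they had the largest differences between END2 and the other lines, and Gclm and Nfe2l2 because they encode a glutathione synthesis subunit and Nrf2 itself. Each stretch of 90 bases is written 5′ to 3′ on the gene's strand, and the capitals mark the match, which is a description of letters and not of binding.
Gsta3 (chr1:21240423-21240512, plus strand, bases 162 to 73 before the start): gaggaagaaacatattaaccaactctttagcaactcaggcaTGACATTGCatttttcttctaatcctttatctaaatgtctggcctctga
Mgst1 (chr6:138140430-138140519, plus strand, bases 97 to 8 before the start): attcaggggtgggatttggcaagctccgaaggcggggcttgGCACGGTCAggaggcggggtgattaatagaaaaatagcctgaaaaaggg
Gclm (chr3:122245382-122245471, plus strand, bases 175 to 86 before the start): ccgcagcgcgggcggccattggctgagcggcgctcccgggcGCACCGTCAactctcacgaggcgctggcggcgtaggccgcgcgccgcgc
Nfe2l2 (chr2:75704824-75704913, minus strand, bases 250 to 161 before the start): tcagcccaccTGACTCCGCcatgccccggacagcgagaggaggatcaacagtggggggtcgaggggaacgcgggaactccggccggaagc

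Gsta3 and Nfe2l2 carried the letters as spelled, and Mgst1 and Gclm carried the reverse complement. In Srxn1 the match began 28 bases after the first transcribed base, inside the transcript. Genes with a match did not share 1 pattern of expression: Gsta3, Mgst1, Srxn1 and Nfe2l2 were highest in END2, Gstm5 was highest in XEN, Gclm was lowest in XEN, Sod1 was higher in PYS2 than in END2, and the representative probes of Prdx1 and Txnrd1 passed no test. Hmox1, Gclc, Gsta4, Gstt2, Sod3, Gsr and Prdx6 had no window in the table.

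Values are scanner signals in arbitrary units, before normalization. A probe was called present in a line when its detection p was under 0.01 on at least 2 of 3 arrays. Differences are on the log2 scale after background correction and quantile normalization, given with their standard errors and with limma's adjusted p over all tested probes. Folds and bounds ("at least") are on that scale, where background has been removed, so they can exceed the ratio of the printed signals. A bound replaces the fold where a line was detected on fewer than 2 arrays, and it takes each array of that line at its lowest detected level or at the probe's own level if higher. The normalized values that the authors deposited gave smaller differences for dim probes, and they are printed beside a result where they moved its fold by over 1.5 times or ended its call. For the further genes of the pathway, described last, they were calculated only for the up to 6 largest differences per comparison. Another difference of a further gene has no such value, whether or not it would have moved. Signals of different probes are not set against each other, because probes differ in brightness. Between 13051 and 14940 probes were detected per array, and the median signal ran from 21.3 to 43.5, with XEN replicate 2 the brightest array. END2 replicate 3 stood apart from the other END2 arrays, at Euclidean distances of 72.1 and 78.5 on the log2 scale over the tested probes, where END2 replicates 1 and 2 were 35.0 apart and PYS2 or XEN replicates 46.2 to 61.0 apart. Of 12 endoderm markers, all were present in PYS2 and XEN and 8 in END2, where Sox7, Sox17, Hnf4a and Lama1 were detected on no array. The summed signal of that list ran from 17891.1 to 28769.4 in END2, 51815.9 to 73155.5 in PYS2 and 54782.2 to 106243.3 in XEN. Of 6 mesenchymal markers, 4 were present in END2 (summed signal 2248.6 to 2794.4; Pdgfrb and Postn on no array) and none was detected on any PYS2 array (115.9 to 173.7) or XEN array (111.7 to 211.2), so these markers moved with every END2 difference below, and their part in it was not tested. Of 4 pluripotency markers only Nanog was present, in END2 alone, and of 4 trophoblast markers only Cdx2, in PYS2 alone. In such bulk samples fewer cells of a type and less RNA per cell cannot be told apart.

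Most of the antioxidant genes were on in all 3 lines. END2 expressed 36 of the 43 genes by this criterion (83.7%), PYS2 30 (69.8%) and XEN 33 (76.7%), against 44.2%, 41.5% and 41.5% of all named genes. Presence in all 3 lines was found for 27 genes, in a pair of lines for 6 (Gsta1, Gsta2, Gstm4, Gstt1, Mgst2, Srxn1) and in 1 line for 6 (Gsta3, Mgst1, Nqo1 and Nfe2l2 in END2, Gstm6 in PYS2, Gpx3 in XEN). The remaining 4 were present in none: Gclc, the catalytic subunit of the enzyme that limits glutathione synthesis, Gstm3, Gpx7 and Sod3. The Gclc probe read between 24.8 and 77.8 and was detected on no array. No other Gclc probe was named, and an undetected probe does not show that its gene is silent. The authors reported Bmp2 as undetected on their arrays but highly expressed in PYS2 and XEN by qRT-PCR. Sod3, the secreted superoxide dismutase, was detected on 1 XEN array. Only the 39 genes present in at least 1 line were tested. The 6 present in a single line passed through the line where they are high, so the filter itself favoured a difference. Their calls are therefore not independent of the filter.

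Counts of differing members were close to the background for the comparisons with END2. Between END2 and PYS2, 21 of 39 members differed (53.8%), 12 higher in END2 and 9 higher in PYS2, where 55.3% of all 9354 tested genes differed (26.4% higher in END2, 28.8% higher in PYS2). Between END2 and XEN, 18 differed (46.2%), 11 higher in END2 and 7 higher in XEN, against a background of 54.2% (27.5% and 26.7%). Between PYS2 and XEN, 21 differed (53.8%), 9 higher in PYS2 and 12 higher in XEN, where the background was 39.6% (21.2% and 18.4%). Arrays of the lines did not overlap for 19, 20 and 26 of the 39 members in the same order, against 61.0%, 62.4% and 54.1% of all tested genes. The median absolute difference of the members was 0.64, 0.59 and 0.70, beside 0.61, 0.60 and 0.43 over all tested genes. The 3 comparisons share arrays, so they are not independent of each other.

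**Figure D1:**
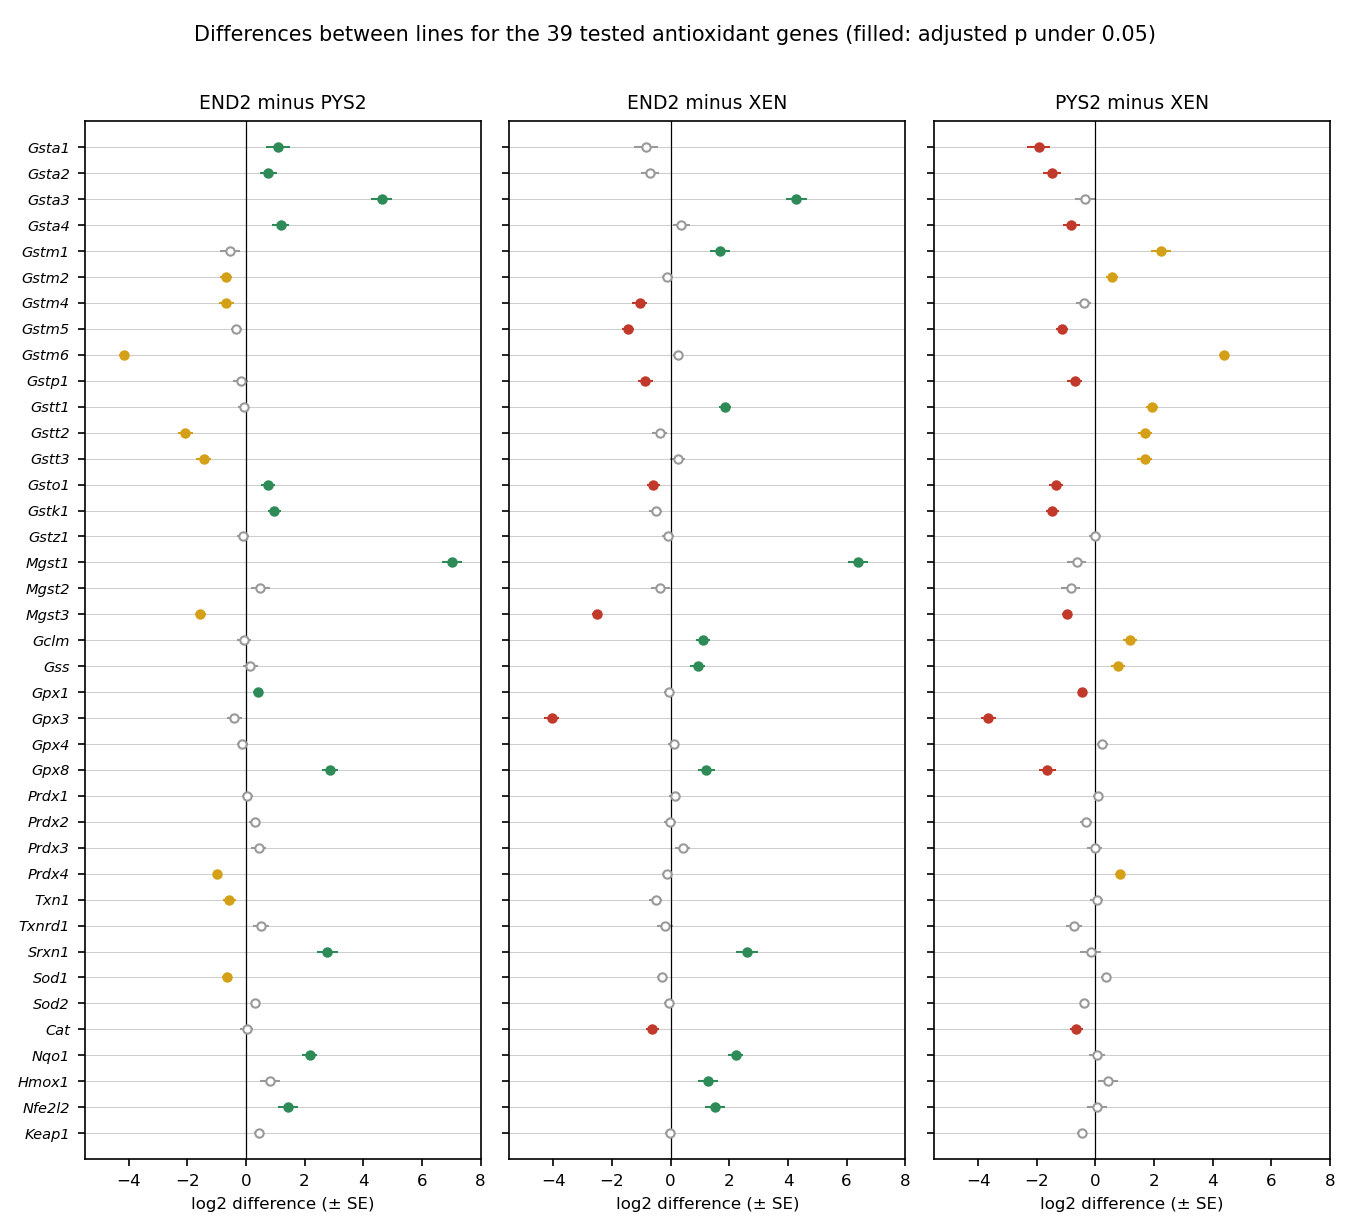
Log2 difference between lines (x axis, normalized log2 scale) for the representative probe of each of the 39 tested genes (y axis), in 3 panels for END2 minus PYS2, END2 minus XEN and PYS2 minus XEN. Bars are standard errors with 3 arrays per line; filled points passed an adjusted p of 0.05 and take the color of the line where the gene was higher (green END2, yellow PYS2, red XEN), and open grey points did not. Mgst1 lies farthest to the right at 7.03 and 6.39 in the panels with END2.

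Glutathione transferases made up 20 of the genes and 19 of those tested. In END2 against PYS2, 7 were higher in END2, 6 higher in PYS2 and 6 passed in neither direction, so that 68.4% were called where 55.3% of all tested genes were. Between END2 and XEN the counts were 4, 5 and 10 (47.4% called, against 54.2%), and between PYS2 and XEN they were 6 higher in PYS2, 8 higher in XEN and 5 in neither (73.7%, against 39.6%). Classes of the family differed in which line read highest, as the following paragraphs give.

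Mgst1, a membrane-bound microsomal transferase that also reduces lipid peroxides, had the largest difference among the members. Its signal was 4746.4, 3738.7 and 1533.8 on the END2 arrays, 15.7, 33.5 and 18.1 on the PYS2 arrays, and 39.7, 67.2 and 25.7 on the XEN arrays. Every END2 array lay far above all others, although END2 replicate 3 gave less than the other END2 arrays. No PYS2 array and 1 XEN array detected the probe. END2 exceeded PYS2 by at least 63.1-fold, a bound set at the lowest detected level of each PYS2 array (log2 difference 7.03 ± 0.335 SE, adjusted p = 8.26e-09). Against XEN the bound was at least 63.7-fold (6.39 ± 0.335, adjusted p = 2.40e-08). With the authors' values the log2 differences were 4.40 and 4.21. Its second probe gave 6.25 and 6.04, and without END2 replicate 3 the representative probe gave 7.44 and 6.79. The related Mgst3, which acts on fatty acid hydroperoxides and leukotrienes, ran the other way. It read 515.9, 541.3 and 412.8 in END2, 1164.6, 1280.6 and 1216.3 in PYS2, and 2144.1, 3168.1 and 2448.4 in XEN, so that the 3 lines did not overlap. The order END2 below PYS2 below XEN was called at each step, with differences of −1.55 ± 0.178 for END2 minus PYS2 (adjusted p = 1.89e-05), −2.51 ± 0.178 for END2 minus XEN (3.25e-07) and −0.96 ± 0.178 for PYS2 minus XEN (adjusted p = 0.00137). Mgst2 passed no test, with differences between −0.84 and 0.49.

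Alpha class transferases, cytosolic enzymes that conjugate lipid aldehydes and steroids in liver and other epithelia, read lowest in PYS2, except Gsta3, which no PYS2 or XEN array detected. Gsta3 read 1318.4, 1268.9 and 335.9 in END2, 30.6, 29.6 and 42.5 in PYS2, and 31.1, 78.8 and 39.4 in XEN. All END2 arrays lay above all others. The bounds were at least 16.6-fold against PYS2 (4.63 ± 0.367, adjusted p = 7.29e-07) and at least 17.2-fold against XEN (4.29 ± 0.367, adjusted p = 1.64e-06), and the log2 differences were 5.17 and 4.82 without END2 replicate 3 and 2.49 and 2.41 with the authors' values. A second Gsta3 probe was detected on no array, so the difference rests on 1 probe. Gsta4, which favours the lipid peroxidation product 4-hydroxynonenal, was bright in every line, at 2690.0, 2080.0 and 985.8 in END2, 588.1, 863.0 and 708.8 in PYS2, and 1375.8, 1540.5 and 1149.6 in XEN. PYS2 lay below all other arrays after normalization. It stood 2.27-fold below END2 (1.19 ± 0.292, adjusted p = 0.00511) and 1.77-fold below XEN (−0.82 ± 0.292 for PYS2 minus XEN, adjusted p = 0.0457). The second of these calls ended when any 1 of 6 arrays was left out (END2 replicate 2, any PYS2 array, XEN replicate 1 or 3), with adjusted p from 0.0548 to 0.168, and with the authors' values (adjusted p = 0.0606).

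Gsta1 and Gsta2 were dim. Gsta1 read 95.3, 43.1 and 90.6 in END2, 31.2, 36.8 and 23.9 in PYS2, and 79.1, 122.9 and 124.6 in XEN, while Gsta2 read 65.1, 39.8 and 54.7, then 28.7, 27.6 and 19.8, then 58.2, 85.0 and 72.1. Neither was detected on a PYS2 array, and END2 replicate 2 was the END2 array that fell short for both. XEN exceeded PYS2 by at least 2.29-fold for Gsta1 (1.94 log2 units ± 0.403, adjusted p = 0.00280) and at least 1.47-fold for Gsta2 (1.48 ± 0.298, adjusted p = 0.00236), and by 0.63 and 0.43 log2 units with the authors' values. The other 2 Gsta1 probes gave −1.32 (adjusted p = 0.0168) and −0.85 (adjusted p = 0.0531) for PYS2 minus XEN. The END2 and PYS2 arrays overlapped for both after normalization. END2 minus PYS2 was 1.10 ± 0.403 for Gsta1 (at least 1.27-fold, adjusted p = 0.0378) and 0.77 ± 0.298 for Gsta2 (adjusted p = 0.0475), whose END2 mean did not exceed the lowest detected levels of PYS2, so that no fold is given. The other 2 Gsta1 probes gave 0.50 and 0.14 here, neither called, and the authors' values gave 0.33 and 0.21 for the representative probes of Gsta1 and Gsta2 (adjusted p = 0.118 and 0.130). Without END2 replicate 3 these became 0.73 and 0.57 with adjusted p of 0.128 and 0.140, and the calls also ended without END2 replicate 1, PYS2 replicate 2 or 3, or XEN replicate 1 (for Gsta1, PYS2 replicate 1 as well; adjusted p from 0.0505 to 0.133). Gsta1 and Gsta2 are near-identical copies, and their probes were not checked for cross-hybridization.

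Mu class transferases lie side by side on chromosome 3, in the order Gstm5, Gstm7, Gstm6, Gstm3, Gstm2, Gstm1 and Gstm4, and these neighbours differed in which line was highest. Gstm6 was a PYS2 gene. It read 35.9, 31.1 and 32.8 in END2, 316.8, 598.5 and 464.8 in PYS2, and 18.6, 35.3 and 21.6 in XEN. Only PYS2 arrays detected it. The bounds were at least 11.9-fold above END2 (END2 minus PYS2 −4.15 ± 0.164, adjusted p = 1.99e-09) and at least 10.4-fold above XEN (PYS2 minus XEN 4.39 ± 0.164, adjusted p = 7.57e-09), and all 3 Gstm6 probes were called in both comparisons. With the authors' values the differences were −1.93 and 2.01. Gstm1 was lowest in XEN, at 144.3, 201.7 and 101.1, against 742.4, 710.9 and 245.4 in END2 and 546.4, 1058.5 and 460.1 in PYS2. Every XEN array lay below every other array. A second Gstm1 probe was detected on 1 PYS2 array alone and was not tested. XEN was 3.19-fold below END2 (1.67 ± 0.340, adjusted p = 0.00150) and 4.68-fold below PYS2 (2.23 ± 0.340, adjusted p = 0.000361), with 1.08 and 1.51 from the authors' values.

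Gstm5, best known from testis and brain, was highest in XEN. Its signal was 324.0, 379.2 and 205.0 in END2, 240.2, 475.6 and 260.3 in PYS2, and 599.1, 1126.6 and 495.5 in XEN. The XEN arrays lay above all others, by 2.73-fold against END2 (−1.45 ± 0.197, adjusted p = 7.94e-05) and 2.19-fold against PYS2 (−1.13 ± 0.197, adjusted p = 0.000918). Gstm4 was dim, at 49.3, 52.9 and 60.2 in END2, 65.9, 69.4 and 70.5 in PYS2, and 67.2, 136.1 and 82.7 in XEN. Only 1 END2 array detected it. END2 minus XEN was −1.06 ± 0.246 (at least 2.05-fold, adjusted p = 0.00349) with arrays that did not overlap, −0.35 with the authors' values and not called without normalization between arrays (adjusted p = 0.0594). END2 minus PYS2 was −0.66 ± 0.246 (adjusted p = 0.0396), a call that ended without END2 replicate 1 or 2, PYS2 replicate 1 or 3, or XEN replicate 1 (adjusted p from 0.0532 to 0.150), or with the authors' values (adjusted p = 0.107). Gstm2 was bright in all lines and moderately higher in PYS2, by 0.67 ± 0.197 over END2 (adjusted p = 0.0135) and 0.56 ± 0.197 over XEN (adjusted p = 0.0443). Both calls ended without PYS2 replicate 2 (adjusted p = 0.0533 and 0.137), and the second also without END2 replicate 1, PYS2 replicate 3, or XEN replicate 2 or 3 (adjusted p from 0.0615 to 0.144). Mu class genes are close paralogs, so signal may be shared between their probes, which was not checked.

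**Figure D2:**
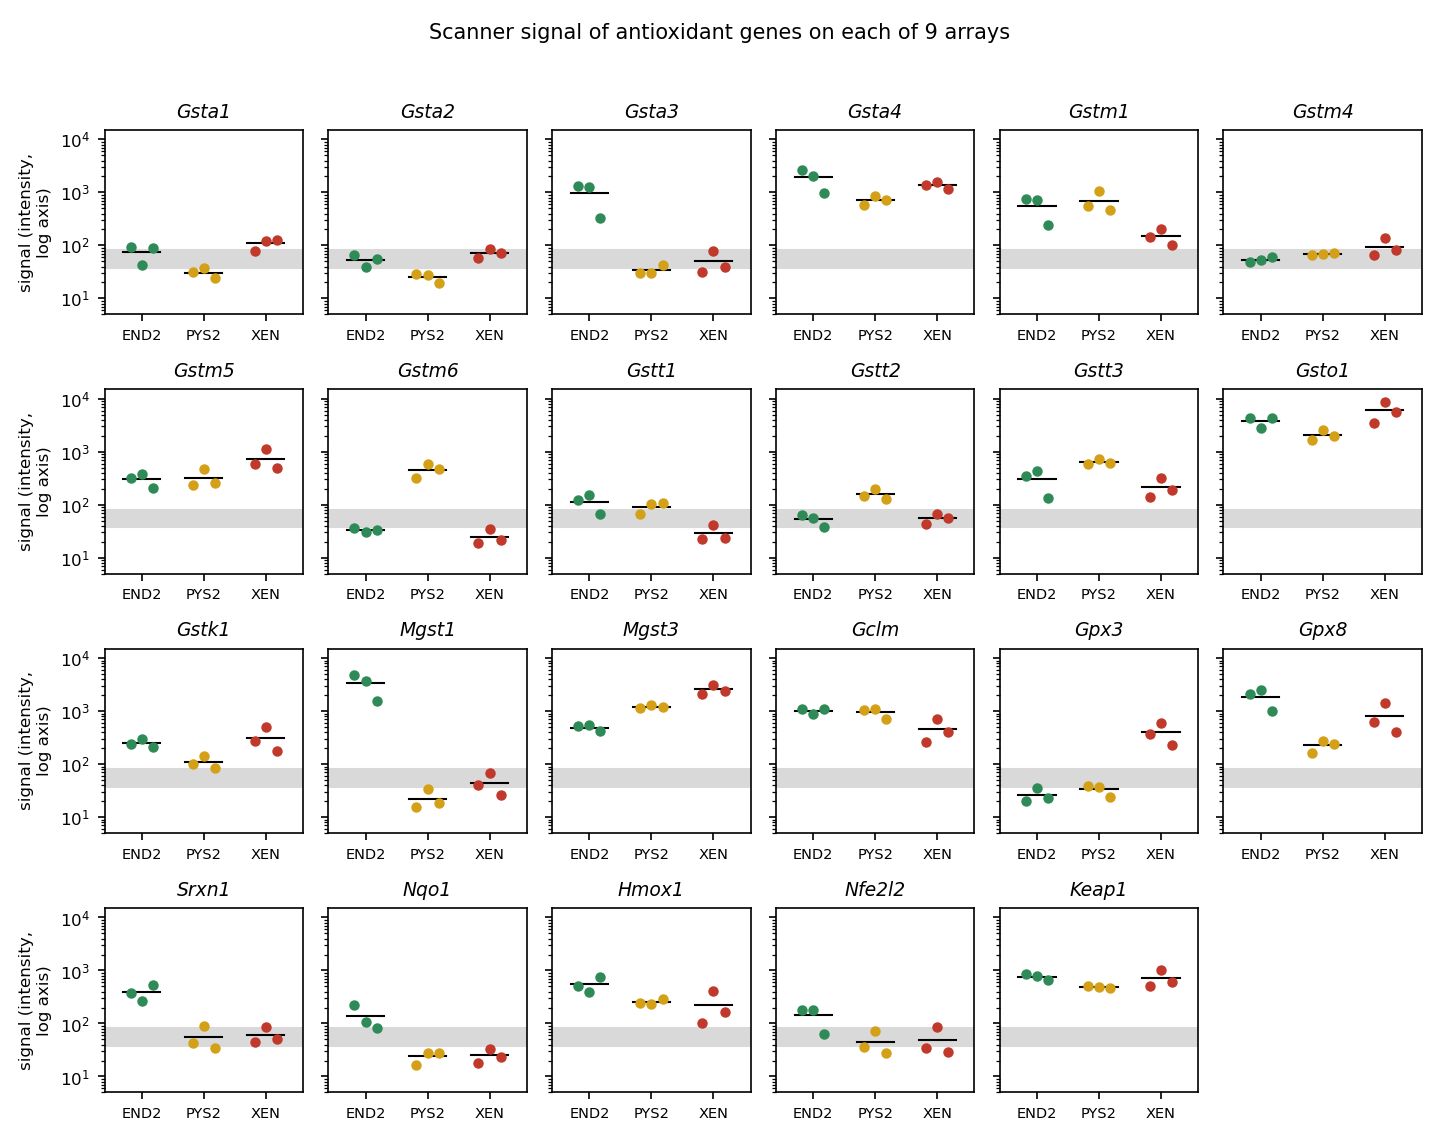
Scanner signal (arbitrary units, log axis) of 23 genes on each of 9 arrays: the 22 members with a called log2 difference of at least 1, and Keap1. Points are arrays of END2 (green), PYS2 (yellow) and XEN (red), black lines are means over 3 arrays, and the grey band spans the lowest detected signal of the 9 arrays (37.6 to 80.5). Mgst1, Gsta3, Nqo1 and Nfe2l2 rise out of the band mainly in END2, Gstm6 in PYS2 and Gpx3 in XEN.

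Theta class transferases, which lie on chromosome 10 as Gstt3, Gstt1, Gstt4 and Gstt2 and act on small halogenated compounds, were all higher in PYS2 than in XEN. Gstt2 read 64.0, 57.0 and 37.7 in END2, 147.1, 202.2 and 130.5 in PYS2, and 42.7, 67.2 and 56.4 in XEN. PYS2 arrays lay above the rest, by 4.16-fold over END2 (END2 minus PYS2 −2.06 ± 0.252, adjusted p = 3.10e-05) and 3.23-fold over XEN (1.69 ± 0.252, adjusted p = 0.000303), with −0.79 and 0.68 from the authors' values. For Gstt3 the signals were 344.3, 440.3 and 137.1, then 582.1, 720.9 and 603.6, then 138.4, 319.4 and 191.2, in the order END2, PYS2, XEN. Again PYS2 was highest on every array, by 2.71-fold (−1.44 ± 0.260, adjusted p = 0.000647) and 3.20-fold (1.68 ± 0.260, adjusted p = 4.00e-04). A second probe of Gstt2 and a second probe of Gstt3 were detected on no array. Gstt1 had another order, with 121.2, 150.6 and 66.5 in END2, 68.0, 101.6 and 108.4 in PYS2, and 22.9, 42.0 and 23.9 in XEN. No XEN array detected it, and XEN was at least 1.95-fold below END2 (1.85 ± 0.191, adjusted p = 8.29e-06) and at least 2.05-fold below PYS2 (1.93 ± 0.191, adjusted p = 1.33e-05), with 0.55 and 0.58 from the authors' values. Between END2 and PYS2, Gstt1 differed by −0.08 ± 0.191 (adjusted p = 0.765).

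Of the remaining transferases, Gsto1, a thiol transferase and dehydroascorbate reductase, was lowest in PYS2. Its signal was 4314.6, 2775.8 and 4306.4 in END2, 1648.8, 2612.2 and 1944.1 in PYS2, and 3540.0, 8869.4 and 5690.8 in XEN. XEN exceeded PYS2 by 2.55-fold (−1.35 ± 0.231 for PYS2 minus XEN, adjusted p = 0.000815). END2 exceeded PYS2 by 0.76 ± 0.231 (adjusted p = 0.0166), a call that ended without END2 replicate 3 (0.59, adjusted p = 0.0505), without END2 replicate 1 (0.0632) or without PYS2 replicate 1 (0.0536). END2 minus XEN was −0.59 ± 0.231 with overlapping arrays (adjusted p = 0.0495), and it passed only while END2 replicates 1 and 2, all PYS2 arrays and XEN replicates 2 and 3 were kept (adjusted p from 0.0588 to 0.205 without 1 of them, and −0.34 without END2 replicate 2). Gstk1, the mitochondrial and peroxisomal kappa form, read 238.6, 294.0 and 208.0 in END2, 101.2, 141.1 and 85.2 in PYS2, and 276.6, 495.7 and 180.2 in XEN. PYS2 was lower on every array, by 1.96-fold against END2 (0.97 ± 0.221, adjusted p = 0.00310) and 2.77-fold against XEN (−1.47 ± 0.221, adjusted p = 0.000323; −0.83 with the authors' values). The second Gstk1 probe gave 0.51 against END2 (adjusted p = 0.0821) and −0.86 against XEN (adjusted p = 0.0114). Gstp1, the pi class enzyme common in proliferating cells, was bright everywhere and higher in XEN, by 0.87 over END2 (adjusted p = 0.0131; 0.0596 without XEN replicate 1) and by 0.70 over PYS2 (adjusted p = 0.0499). The latter lay at the threshold and was lost without END2 replicate 1, any PYS2 array or any XEN array (adjusted p from 0.0556 to 0.176). Gstz1, which also acts in tyrosine breakdown, passed no test, with differences between −0.10 and −0.01.

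Glutathione synthesis was measured through Gclm and Gss, and both read lowest in XEN. Gclm, the modifier subunit that raises the activity of the Gclc subunit, read 1074.0, 898.7 and 1093.3 in END2, 1051.4, 1102.2 and 710.1 in PYS2, and 263.0, 704.1 and 412.5 in XEN. XEN arrays lay below the rest after normalization. XEN was 2.15-fold below END2 (1.10 ± 0.236, adjusted p = 0.00215) and 2.25-fold below PYS2 (1.17 ± 0.236, adjusted p = 0.00239), whereas END2 and PYS2 differed by −0.07 ± 0.236 (adjusted p = 0.831), a sign that turned in some alternatives. Gss, which adds glycine in the last step, was again lowest in XEN, 1.89-fold below END2 (0.92 ± 0.247, adjusted p = 0.00863) and 1.70-fold below PYS2 (0.77 ± 0.247, adjusted p = 0.0300), for all 3 of its tested probes. The call against PYS2 ended without PYS2 replicate 1 or 2 or without any XEN array (adjusted p from 0.0646 to 0.0966), and with the authors' values (adjusted p = 0.0729).

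Glutathione peroxidases divided by member. Gpx4, the selenoenzyme that reduces lipid peroxides in membranes, passed no test on its representative probe, with signals from 8349.6 to 10976.5 over the 9 arrays, and a dim Gpx4 probe gave −0.50 for END2 minus XEN (adjusted p = 0.0491). Gpx1, the main cytosolic form, was lower in PYS2 by 0.40 ± 0.150 against END2 (adjusted p = 0.0424) and 0.46 ± 0.150 against XEN (adjusted p = 0.0317). Both calls ended without PYS2 replicate 2 or 3 or XEN replicate 3; the first also ended without END2 replicate 1 or 2 or XEN replicate 1, and the second without XEN replicate 2 (adjusted p from 0.0546 to 0.133). Gpx3, the secreted plasma form, was present only in XEN, at 369.4, 595.6 and 228.2, against 20.4, 35.4 and 22.7 in END2 and 38.5, 37.8 and 23.5 in PYS2. No array of the other lines detected it. XEN was at least 9.70-fold above END2 (−4.05 ± 0.252, adjusted p = 1.03e-07) and at least 8.21-fold above PYS2 (−3.65 ± 0.252, adjusted p = 6.75e-07), with −1.78 and −1.67 from the authors' values.

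Gpx8, a peroxidase of the endoplasmic reticulum membrane that lacks selenium, followed the order END2 above XEN above PYS2. It read 2093.1, 2495.7 and 1009.9 in END2, 159.1, 278.9 and 244.1 in PYS2, and 613.8, 1395.6 and 410.0 in XEN. After normalization no array of 1 line overlapped with another line. END2 was 7.28-fold above PYS2 (2.86 ± 0.281, adjusted p = 4.70e-06) and 2.34-fold above XEN (1.22 ± 0.281, adjusted p = 0.00328), and XEN was 3.11-fold above PYS2 (−1.64 ± 0.281, adjusted p = 0.000811). All 3 Gpx8 probes were called in each comparison, with END2 minus PYS2 from 2.62 to 3.49, and without END2 replicate 3 the differences from PYS2 and XEN were 3.16 and 1.53.

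Of the peroxiredoxins and thioredoxin enzymes, 7 were tested; 3 differed between END2 and PYS2 (42.9%, against 55.3% of all tested genes), 1 between END2 and XEN (14.3%, against 54.2%) and 1 between PYS2 and XEN (14.3%, against 39.6%). Prdx1, Prdx2 and Prdx3, of the cytosol and mitochondria, passed no test on their representative probes, with differences between −0.33 and 0.44. Prdx4, the peroxiredoxin of the endoplasmic reticulum, read 5673.1, 6293.4 and 5533.8 in END2, 11673.7, 12421.6 and 9539.8 in PYS2, and 5719.8, 9469.5 and 5569.8 in XEN. After normalization every PYS2 array was above all others, by 1.96-fold against END2 (−0.97 ± 0.152, adjusted p = 0.000225) and 1.77-fold against XEN (0.83 ± 0.152, adjusted p = 0.00128). The call against XEN ended without normalization between arrays (adjusted p = 0.175). A second Prdx4 probe was detected on 1 PYS2 array alone and was not tested. Txn1, thioredoxin itself, was lower in END2 than in PYS2 by 0.56 ± 0.219 with overlapping arrays (adjusted p = 0.0482), which was lost without END2 replicate 1 or 2, PYS2 replicate 1 or 2, or any XEN array (adjusted p from 0.0600 to 0.199). Txnrd1, the cytosolic thioredoxin reductase, passed no test, with −0.72 ± 0.273 for PYS2 minus XEN (adjusted p = 0.0593).

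Srxn1, which encodes sulfiredoxin and repairs over-oxidized peroxiredoxins, was highest in END2. It read 381.6, 270.4 and 527.3 in END2, 42.3, 90.3 and 34.9 in PYS2, and 44.8, 86.8 and 50.5 in XEN. All END2 arrays lay above the others, and here END2 replicate 3 was the highest. The probe was detected on 1 PYS2 array and all 3 XEN arrays. The differences were at least 6.01-fold against PYS2 (2.78 ± 0.365, adjusted p = 5.57e-05) and 6.11-fold against XEN (2.61 ± 0.365, adjusted p = 9.67e-05). On the log2 scale they were 2.38 and 2.22 without END2 replicate 3 and 1.35 and 1.32 with the authors' values. The other 2 Srxn1 probes were called in the same comparisons, at 1.30 and 2.91 against PYS2 and 1.13 and 3.06 against XEN.

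Superoxide dismutases and catalase differed by less than 1 log2 unit on their representative probes. Sod1, the cytosolic copper-zinc form, stood 1.56-fold above END2 in PYS2 (−0.64 ± 0.159, adjusted p = 0.00527), a call that ended without normalization between arrays (adjusted p = 0.220). Sod2, the mitochondrial manganese form, passed no test, with differences between −0.39 and 0.32. Cat, the peroxisomal catalase, was higher in XEN, by 0.62 ± 0.221 over END2 (adjusted p = 0.0343) and 0.65 ± 0.221 over PYS2 (adjusted p = 0.0381). A second Cat probe was detected on no array. XEN replicate 2 was the brightest for Cat, at 1469.5 where XEN replicates 1 and 3 gave 457.7 and 395.5, and without it the differences were −0.38 (adjusted p = 0.140) and −0.41 (adjusted p = 0.149). The END2 minus XEN call ended as well without any END2 array or XEN replicate 1, and the PYS2 minus XEN call without END2 replicate 1, any PYS2 array or XEN replicate 1 (adjusted p from 0.0505 to 0.125).

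Nqo1 and Hmox1 are classical targets of Nrf2 and encode a quinone reductase and heme oxygenase. Nqo1 read 219.4, 106.0 and 83.5 in END2, 16.4, 27.3 and 28.1 in PYS2, and 17.9, 33.6 and 23.7 in XEN. Only END2 arrays detected it, and a second Nqo1 probe was detected on no array. END2 was at least 2.25-fold above PYS2 (2.17 ± 0.263, adjusted p = 2.87e-05) and at least 2.32-fold above XEN (2.22 ± 0.263, adjusted p = 2.59e-05), with 2.28 and 2.33 without END2 replicate 3 and 0.70 and 0.71 with the authors' values. Hmox1 read 519.0, 389.4 and 751.9 in END2, 246.1, 234.1 and 286.3 in PYS2, and 100.3, 416.6 and 164.7 in XEN. After normalization END2 did not overlap with XEN but did overlap with PYS2. It was 2.40-fold above XEN (1.26 ± 0.343, adjusted p = 0.00898; 0.86 and 0.0221 without END2 replicate 3; adjusted p = 0.0593 with no filter on dim probes), and END2 minus PYS2 was 0.83 ± 0.343 (adjusted p = 0.0615).

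The regulators differed from each other. Nfe2l2 read 181.1, 181.7 and 62.7 in END2, 35.6, 73.2 and 27.7 in PYS2, and 34.9, 85.5 and 29.0 in XEN. After normalization all END2 arrays were above all others, and PYS2 and XEN each had 1 array that detected the probe. END2 was at least 2.08-fold above PYS2 (1.45 ± 0.343, adjusted p = 0.00390) and at least 2.30-fold above XEN (1.50 ± 0.343, adjusted p = 0.00328). The log2 differences were 1.81 and 1.86 without END2 replicate 3 and 0.50 and 0.52 with the authors' values. A second Nfe2l2 probe was detected on no array. Nrf2 is controlled mainly through protein stability, which these arrays do not measure. Keap1, the adaptor that marks Nrf2 for degradation, was bright in all lines, at 849.5, 794.9 and 650.8 in END2, 516.2, 489.7 and 461.1 in PYS2, and 519.8, 1022.5 and 606.4 in XEN. PYS2 lay below both other lines without overlap after normalization, but no comparison passed: END2 minus PYS2 was 0.44 ± 0.177 (adjusted p = 0.0550), PYS2 minus XEN −0.46 ± 0.177 (adjusted p = 0.0623) and END2 minus XEN −0.02 ± 0.177 (adjusted p = 0.941, with a sign that turned in some alternatives). With the authors' values the differences between PYS2 and the other lines were called, at 0.35 for END2 minus PYS2 (adjusted p = 0.0281) and −0.37 for PYS2 minus XEN (adjusted p = 0.0314). Of the other 3 tested Keap1 probes, 2 were called lower in PYS2 than in XEN, at −0.65 and −0.56.

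Several probes of the same gene could be compared for 16 members, in 48 gene-by-comparison pairs. All probes of a gene gave the same call in 34 of the 48, and probes were called in opposite directions in 0. Prdx2 was the widest disagreement. Its bright probe read 11081.1, 11804.0 and 6274.8 in END2, 6754.1, 8688.4 and 6782.8 in PYS2, and 8760.9, 13403.6 and 9509.5 in XEN, and was not called (0.30 against PYS2 and −0.02 against XEN). Its other 2 probes, which read 74.1 to 433.1 and 20.4 to 136.4, were higher in END2 by 1.62 and 1.80 against PYS2 and by 0.84 and 2.03 against XEN. The dim probe of Prdx1 was higher in END2 by 0.68 against either line (adjusted p = 0.0297 and 0.0287), and the dim probe of Sod1 was lower in END2 than in XEN by 1.18 log2 units (adjusted p = 0.00299). The other tested Txn1 probe, also dim, was called higher in PYS2 than in XEN by 0.60, where the representative probe gave 0.05 and was not called. Which transcript each probe reads was not checked.

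**Figure D3:**
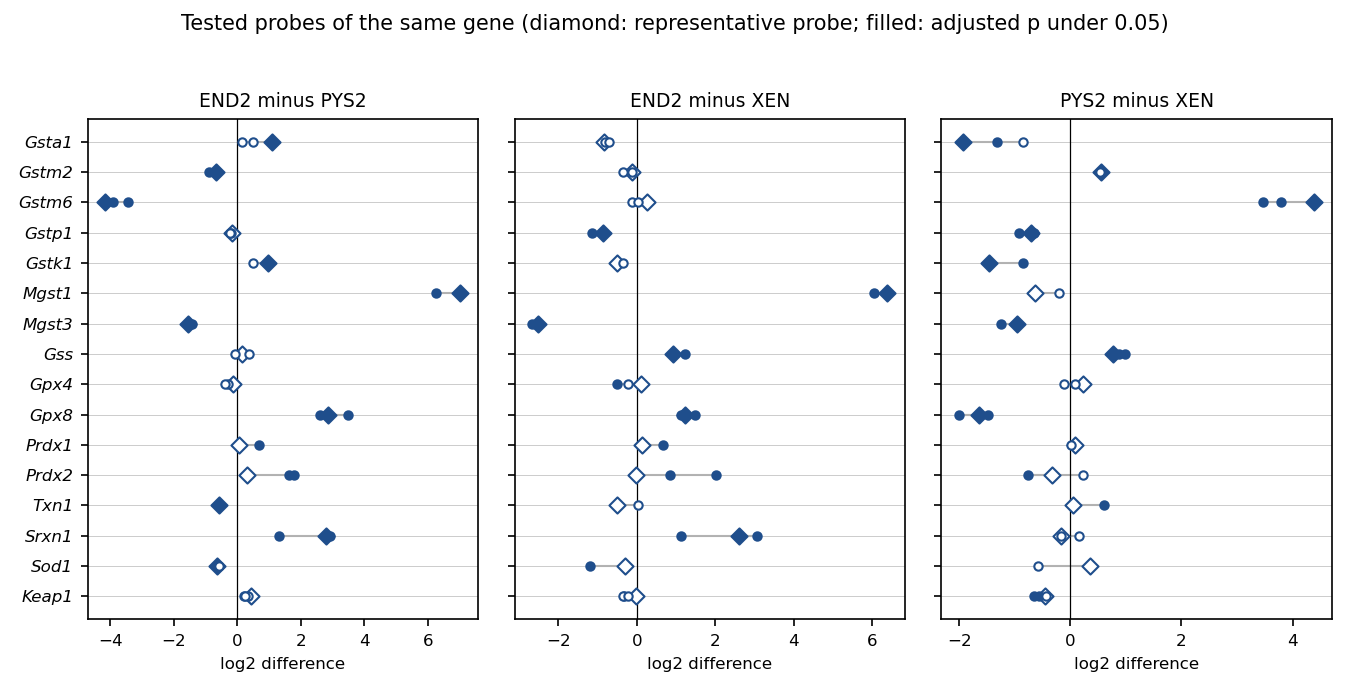
Log2 difference between lines (x axis) for every tested probe of the 16 members with more than 1 tested probe (y axis), in 3 panels for the 3 comparisons. Diamonds are the representative probes and circles the others; filled symbols passed an adjusted p of 0.05. Prdx2 spans 0.30 to 1.80 for END2 minus PYS2, while in that panel the probes of Gstm6, Mgst1, Mgst3 and Gpx8 keep to 1 side. For END2 minus XEN the Gstm6 probes run from −0.11 to 0.25.

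Further genes of the pathway, from a list of 77 genes for cysteine supply, NADPH, thioredoxin relatives, Nrf2 partners and targets, selenium supply and peroxisomes, were taken to set the members in context. Of 60 tested, 16 were higher in END2, 19 higher in PYS2 and 25 passed in neither direction between END2 and PYS2, 19, 19 and 22 in END2 against XEN, and 11 higher in PYS2, 12 higher in XEN and 37 in neither between those lines. The called shares were 58.3%, 63.3% and 38.3%, against 55.3%, 54.2% and 39.6% of all tested genes. Their median differences were −0.14, −0.15 and 0.08, beside −0.03, −0.02 and 0.02 over all tested genes. Of 13 tested genes grouped as other targets of Nrf2, 7 were higher in END2 and 3 higher in PYS2 between those lines. Between END2 and XEN, 6 were higher in END2 and 5 higher in XEN. Between PYS2 and XEN, 3 were higher in PYS2 and 4 higher in XEN. In this group 76.9%, 84.6% and 53.8% were called, against the same backgrounds. It is not a full set of Nrf2 targets, since each gene was placed in 1 group only. On their representative probes, Slc7a11, Me1, Msrb3, Nfe2l3, Osgin1, Aldh3a1 and Ugt1a6a were present in END2 alone. Oplah and Pstk were present in XEN alone. All of these passed the filter through the line where they are high, so the filter itself favoured a difference. Their calls are counted in the shares above. The background genes passed the same filter, and how far such genes move either share was not tested.

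Of 7 tested genes of cysteine supply and glutathione turnover, 3 were higher and 2 lower in END2 in either comparison (71.4%, against 55.3% and 54.2% of all tested genes). Slc7a11, the cystine transporter subunit that feeds glutathione synthesis, read 165.6, 130.8 and 339.8 in END2, 41.8, 17.7 and 20.2 in PYS2, and 14.5, 22.1 and 18.6 in XEN. Only END2 arrays detected it, at least 3.52-fold above PYS2 (2.57 ± 0.455, adjusted p = 0.000563) and at least 3.63-fold above XEN (2.99 ± 0.455, adjusted p = 0.000191), with 1.00 and 1.13 from the authors' values. Chac1, which cleaves glutathione and is induced by stress of amino acid supply, read 2082.7, 2292.8 and 2746.3 in END2, 626.5, 141.3 and 219.6 in PYS2, and 120.7, 291.6 and 383.4 in XEN. The END2 arrays lay above all others, by 8.25-fold (3.04 ± 0.586, adjusted p = 0.00101) and 9.46-fold (3.24 ± 0.586, adjusted p = 0.000668; 2.65 with the authors' values). Me1, malic enzyme and a source of cytosolic NADPH, was also detected only in END2, at 365.8, 466.0 and 324.2, where PYS2 gave 23.8, 24.5 and 29.1 and XEN 13.7, 42.2 and 19.9. The bounds for Me1 were at least 7.29-fold (3.79 ± 0.163, adjusted p = 3.58e-09) and at least 7.53-fold (3.95 ± 0.163, adjusted p = 3.32e-09), with 1.62 and 1.68 from the authors' values. It was the only 1 of 7 tested NADPH genes that was higher in END2 than in PYS2, where 4 were higher in PYS2 (71.4% called, against 55.3% of all tested genes). Between END2 and XEN, 1 was higher in END2 and 3 were higher in XEN (57.1%, against 54.2%).

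Among the further Nrf2 targets, Osgin1 and Ephx1 were higher in END2. Osgin1, an oxidative stress induced growth inhibitor, was detected on END2 arrays alone, at 190.0, 165.6 and 205.4, with 15.7 to 25.9 elsewhere, and was at least 3.41-fold above PYS2 (2.87 ± 0.220, adjusted p = 5.41e-07) and at least 3.52-fold above XEN (2.93 ± 0.220, adjusted p = 5.17e-07), with 1.02 and 1.05 from the authors' values. Ephx1, microsomal epoxide hydrolase, read 1034.2, 1030.3 and 686.3 in END2, 171.7, 205.3 and 198.7 in PYS2, and 85.3, 140.1 and 113.1 in XEN. It was 4.14-fold above PYS2 (2.05 ± 0.222, adjusted p = 1.10e-05) and 7.47-fold above XEN (2.90 ± 0.222, adjusted p = 6.08e-07; 1.94 with the authors' values). Cbr3, a carbonyl reductase, read 219.0, 166.1 and 288.2 in END2 and 54.3, 140.0 and 94.2 in XEN and was not detected in PYS2, which lay at least 4.02-fold below END2 (3.10 ± 0.316, adjusted p = 6.76e-06) and at least 1.90-fold below XEN (adjusted p = 0.000439), with 1.16 and −0.62 from the authors' values.

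Some other targets of Nrf2 were highest in PYS2 or XEN. Akr1b8, an aldose reductase family member, read 47.3, 39.4 and 41.6 in END2, where no array detected it, 173.4, 278.9 and 127.3 in PYS2, and 993.0, 1699.2 and 1272.1 in XEN. The lines did not overlap, and XEN was at least 32.6-fold above END2 (END2 minus XEN −5.28 ± 0.241, adjusted p = 7.25e-09) and 6.73-fold above PYS2 (−2.75 ± 0.241, adjusted p = 4.74e-06), with −3.09 and −2.10 from the authors' values. Blvrb, biliverdin reductase B, acts after heme oxygenase in heme breakdown. Its signals were 608.3, 605.6 and 525.1 in END2, 5172.4, 5987.3 and 4786.2 in PYS2, and 1296.0, 1908.7 and 949.2 in XEN, so that PYS2 was 10.6-fold above END2 (−3.41 ± 0.179, adjusted p = 1.92e-08) and 4.20-fold above XEN (2.07 ± 0.179, adjusted p = 4.41e-06). Esd, which releases formic acid from S-formylglutathione, was highest in XEN, at 393.2, 961.9 and 441.8 against 81.5 to 151.9 on all other arrays, 4.70-fold above END2 (−2.23 ± 0.204, adjusted p = 2.90e-06) and 5.40-fold above PYS2 (−2.43 ± 0.204, adjusted p = 3.37e-06; −1.52 with the authors' values).

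In the thiol repair group, Msrb2, a mitochondrial methionine sulfoxide reductase, was lowest in PYS2, at 35.1, 57.5 and 33.6 where END2 gave 145.9, 195.1 and 68.7 and XEN 135.3, 206.2 and 118.8. It was detected on 1 PYS2 array. PYS2 was at least 2.24-fold below END2 (1.48 ± 0.259, adjusted p = 0.000514) and at least 3.23-fold below XEN (−2.01 ± 0.259, adjusted p = 0.000103; −0.75 with the authors' values). Txnrd3, a thioredoxin and glutathione reductase known from testis, was lowest in XEN, at 34.9, 92.9 and 49.0 against 145.1, 132.3 and 179.6 in END2 and 88.9, 192.1 and 148.3 in PYS2. XEN was 2.57-fold below END2 (1.36 ± 0.277, adjusted p = 0.00151) and 2.88-fold below PYS2 (1.52 ± 0.277, adjusted p = 0.00119; 0.60 with the authors' values).

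**Figure D4:**
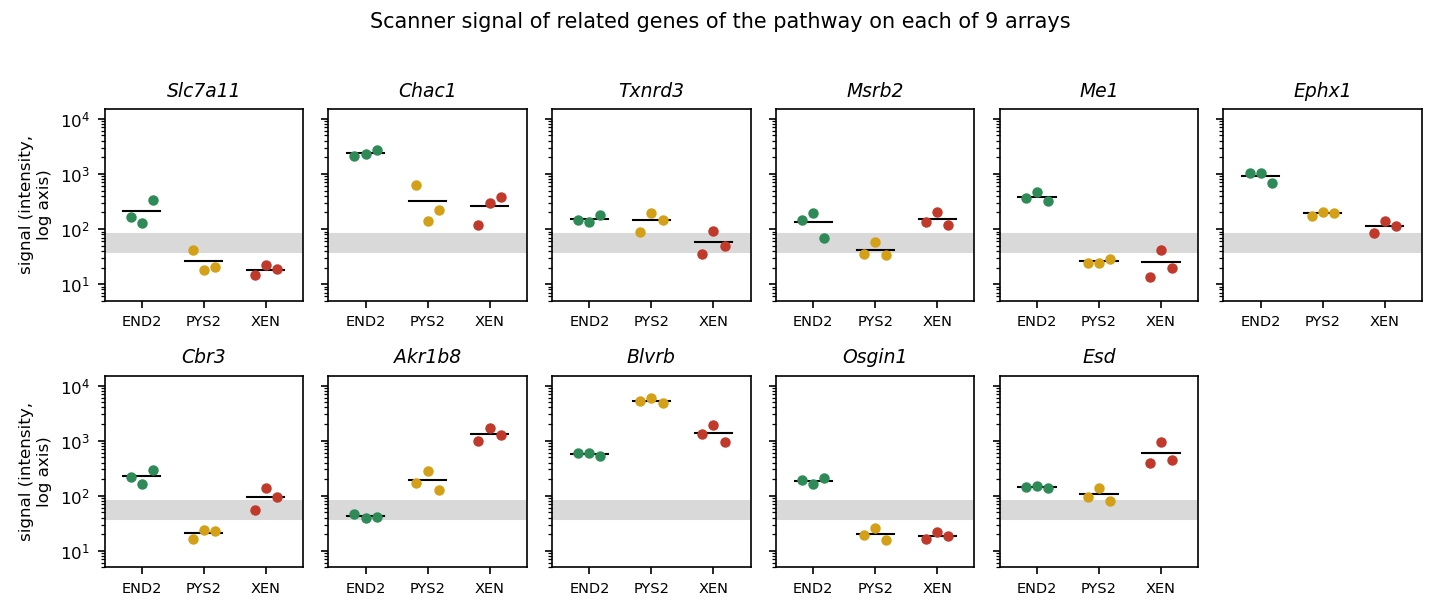
Scanner signal (arbitrary units, log axis) of 11 further genes of the pathway on each of 9 arrays, with END2 in green, PYS2 in yellow and XEN in red, means as black lines and the grey band as the range of the lowest detected signal (37.6 to 80.5). Slc7a11, Me1 and Osgin1 lie above the band in END2 alone, and Akr1b8 and Blvrb lie lowest in END2.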

How the data were processed

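Total RNA of 9 samples (3 each of END2, PYS2 and XEN, grouped by their labels) was hybridized to Illumina mouse bead arrays. The deposited scanner table holds signal intensity, bead spread and bead number per probe and a detection score, a fraction that was read as 1 minus the detection p. The authors also deposited normalized log2 values made with lumi, which served as an alternative. The sources used here do not state whether scanner signals were background-subtracted. Columns of 24 measurements from other array sets were not used.

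Intensities were corrected with limma's neqc (limma 3.58.1, R 4.3.3; negative controls inferred from detection p, offset 16, quantile normalization). Probes with a detection p under 0.01 on at least 2 of 3 arrays of a line were tested (16299 of 45281 probes, 9354 genes), with lmFit and eBayes over all 9 arrays and Benjamini-Hochberg adjustment per comparison. The tested probe with the highest mean level represents its gene. A probe detected on fewer than 2 arrays of a line has a fold bound, against each array's lowest detected level. Probes were named from the platform annotation: 34885 had 1 symbol, 18 several and 10378 none. Depth does not apply to arrays, and 3 arrays per line limit the precision. The fit was tested on simulated data.

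Full statistics are given for members called with an absolute log2 difference of at least 1 in a comparison, and for Nfe2l2, Keap1, Gclc and Gclm; of the further genes, for up to 6 per comparison with the largest called differences and no overlap. Members and lists were chosen with earlier results of these data known. Alternatives were the authors' values, other corrections, normalizations, filters, spreads, array weights, fits and thresholds, and each array left out.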

Additional observations from a re-analysis of the deposited data

How the results depend on the processing

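Of the 60 member calls, 40 were kept under all 21 alternatives, 20 were lost under at least 1 and 0 changed direction. The kept calls include all those of Gsta3, Mgst1, Nqo1, Nfe2l2, Gstm6 and Gpx3. These genes passed the filter through the line where they are high, so their being kept is no independent support. Hmox1 (END2 minus XEN) was lost with no filter (adjusted p = 0.0593), and Gstm4 (END2 minus XEN), Prdx4 (PYS2 minus XEN) and Sod1 (END2 minus PYS2) without normalization between arrays (0.0594, 0.175 and 0.220). Leaving out 1 array at a time ended the other 16 calls; members higher in END2 than PYS2 then numbered 9 to 12 and higher in PYS2 7 to 9, higher in END2 than XEN 11 to 14 and higher in XEN 5 to 10, higher in PYS2 than XEN 7 to 9 and higher in XEN 8 to 16. The further genes gave 15 to 17, 15 to 19, 17 to 19, 15 to 22, 8 to 13 and 9 to 13 in that order. Of all tested genes, 47.6% to 57.5%, 46.6% to 57.7% and 31.8% to 45.4% were then called in the 3 comparisons. Without normalization between arrays the median of all tested genes moved to 0.16 for END2 minus PYS2 and 0.13 for END2 minus XEN, 61.1% and 60.8% of calls were higher in END2 (47.8% and 50.7% otherwise), members higher in PYS2 than END2 fell to 5 and in XEN than END2 to 3, and the further genes to 9 and 10, with 4 and 4 between PYS2 and XEN. Of all tested genes, 32.9%, 32.3% and 16.1% were called in the 3 comparisons without normalization, against 55.3%, 54.2% and 39.6% in the main setting. Members higher in XEN than END2 were 4 with no filter, 12 with array weights and 4 at a threshold of 0.01, where further genes higher in PYS2 than XEN were 6. In those settings 24.9%, 69.2% and 41.4% of all tested genes were called for END2 minus XEN, and 26.0% for PYS2 minus XEN at 0.01. Signs turned only for differences that were not called, and the cause was not tested: Gclm for END2 minus PYS2 was 0.12 without normalization, and from −0.25 to 0.11 with 1 array left out (0.10 without END2 replicate 2, 0.11 without PYS2 replicate 1); Nfe2l2 for PYS2 minus XEN was −0.03 without normalization, −0.02 with cyclic loess, and from −0.25 (without PYS2 replicate 2) to 0.34 with 1 array left out, −0.18 without XEN replicate 3; Keap1 for END2 minus XEN was 0.15, 0.06 and 0.01 without normalization, with cyclic loess and with array weights, and from −0.08 to 0.03 with 1 array left out (0.03 without END2 replicate 2 or XEN replicate 3). The authors' values kept 55 of the 60 calls and moved the fold of 25 by over 1.5 times, all toward smaller values; no background correction moved 8. With the replicate number as a block, 54 calls were kept, and same-numbered arrays deviated with correlations from −0.28 to 0.31. Arrays with different numbers were not set beside them, so whether the numbers pair the arrays was not tested. Probes near the lowest detected signal (Gsta1, Gsta2, Gstm4, Gstt1, Nqo1) give differences limited by signal over background.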
